A study of Mus musculus with 6 samples.

Results

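The metallothioneins and zinc-handling genes described here were 10 genes chosen by name from the 43346 genes of the count table: the metallothioneins Mt1, Mt2 and Mt3, the metal-responsive transcription factor Mtf1, the zinc exporter family members Slc30a1, Slc30a3 and Slc30a10, and the zinc importer family members Slc39a10, Slc39a12 and Slc39a14. RNA was sequenced from primary cultures of fetal mouse cortex, taken at gestational day 15.5 and treated with vehicle (DMSO, spelled DSMO in the labels) or with 1 mM 10HDA, trans-10-hydroxy-2-decenoic acid, a fatty acid of royal jelly. There were 3 libraries of vehicle and 3 of 10HDA, and the labels give each of cultures 1, 3 and 4 one library of each treatment. All 6 samples carry the same other labels, namely the strain Cyp19-EGFP, an aromatase reporter line, and the genotype SRY+, while the study's methods name C57BL/6 embryos for this experiment. The duration of treatment and the number of embryos behind a culture are not given in the sources used here, and a culture is a mixture of cell types. The cultures were treated to see which genes respond to 10HDA in male cortical cells.

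The libraries held between 9144736 and 13367194 counts, so that 3 counts correspond to between 0.224 and 0.328 CPM (counts scaled to the same library total), a limit that covers counting error only. Ddx3y, Eif2s3y, Kdm5d and Uty, which lie on the Y chromosome, summed to 8.83 CPM and 9.41 CPM in the vehicle and 10HDA libraries of culture 1 and between 90.0 CPM and 131 CPM in the other 4, although all are labelled male. Calls among the 10 genes are therefore also given without culture 1. Neuronal markers summed to between 6117 and 6425 CPM with vehicle and between 5044 and 5627 CPM with 10HDA. Markers of microglia summed to at most 1.23 CPM and those of endothelial cells and pericytes to at most 3.14 CPM in any library, with Tmem119 at 0 counts throughout.

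Metallothioneins are small cysteine-rich proteins that bind zinc and copper in the cytosol and buffer the free metal. Mt1 and Mt2 are made by many cell types and are induced by metals, glucocorticoids and oxidative stress, whereas Mt3 is found mainly in the nervous system and responds little to metals. Mtf1 encodes MTF-1, the factor that senses zinc and binds metal response elements in promoters such as those of Mt1, Mt2 and Slc30a1. Proteins of the Slc30a family (ZnT) move zinc out of the cytosol, to the outside or into vesicles, and those of the Slc39a family (ZIP) move it in. In brain, astrocytes are a main source of Mt1 and Mt2, and the synaptic vesicles of glutamatergic neurons are loaded with zinc by the product of Slc30a3.

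The promoters of 4 of the genes are shown because MTF-1 acts through short elements in them: those of Mt1, Mt2 and Slc30a1, known targets of MTF-1, and that of Slc30a10, which had the largest fitted difference among the 10 genes. The sequences are from RefSeq (GRCm38.p6), 250 bases up to the base before the annotated start site, 5′ to 3′ on the strand of the gene, with matches to the core of the metal response element in capitals. The core was searched as TGCACNC and TGCGCNC on both strands. The intervals are chr8:94178839-94179088 for Mt1, chr8:94172368-94172617 for Mt2, chr1:191906531-191906780 for Slc30a1 and chr1:185454598-185454847 for Slc30a10, all on the plus strand.
Mt1: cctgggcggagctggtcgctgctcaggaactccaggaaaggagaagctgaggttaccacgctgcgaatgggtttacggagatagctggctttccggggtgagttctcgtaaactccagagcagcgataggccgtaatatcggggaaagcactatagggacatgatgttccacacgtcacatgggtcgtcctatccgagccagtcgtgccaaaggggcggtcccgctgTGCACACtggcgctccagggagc
Mt2: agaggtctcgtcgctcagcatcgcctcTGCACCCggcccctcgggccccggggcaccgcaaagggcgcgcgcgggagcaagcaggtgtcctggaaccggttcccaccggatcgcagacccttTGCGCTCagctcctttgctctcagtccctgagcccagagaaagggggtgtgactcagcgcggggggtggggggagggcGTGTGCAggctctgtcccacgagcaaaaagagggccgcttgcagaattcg
Slc30a1: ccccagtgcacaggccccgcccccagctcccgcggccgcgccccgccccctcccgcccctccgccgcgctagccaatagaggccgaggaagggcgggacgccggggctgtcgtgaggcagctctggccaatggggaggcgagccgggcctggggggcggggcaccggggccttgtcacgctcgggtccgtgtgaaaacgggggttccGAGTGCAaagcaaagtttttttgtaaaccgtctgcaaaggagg
Slc30a10: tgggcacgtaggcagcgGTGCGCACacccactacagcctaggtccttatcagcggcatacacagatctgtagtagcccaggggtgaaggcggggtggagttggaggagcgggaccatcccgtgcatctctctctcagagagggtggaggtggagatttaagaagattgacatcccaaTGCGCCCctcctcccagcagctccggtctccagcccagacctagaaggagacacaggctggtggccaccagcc

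RefSeq listed 11 promoters for 9 of the 10 genes, each of 300 bases from 250 before the start site to 50 after it, and none was listed for Slc39a14. The Mt2 promoter held 4 cores, 3 of them upstream of the start. The Mt1 promoter held 3, of which 1 lay upstream and 2 between bases 2 and 26 after the start. The Slc30a10 promoter held 3 matches, of which a pair on opposite strands overlapped each other between bases -233 and -226. The Slc30a1 promoter held 2, 1 on either side of the start, and the Mt3 promoter 1, downstream of the start. Of the 2 promoters of Slc30a3, 1 held a single core. No match was present in the windows of Mtf1, Slc39a10 or Slc39a12. Of all 32851 promoters of the same length, 25.7% held at least 1 core, 7.10% at least 2 and 1.97% at least 3. A match describes the letters of the sequence and is not evidence of binding. These numbers depend on the annotated start: only 1 was searched for Mt1, which has 3 annotated transcripts. Cores outside the windows were not counted.

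**Figure D1:**
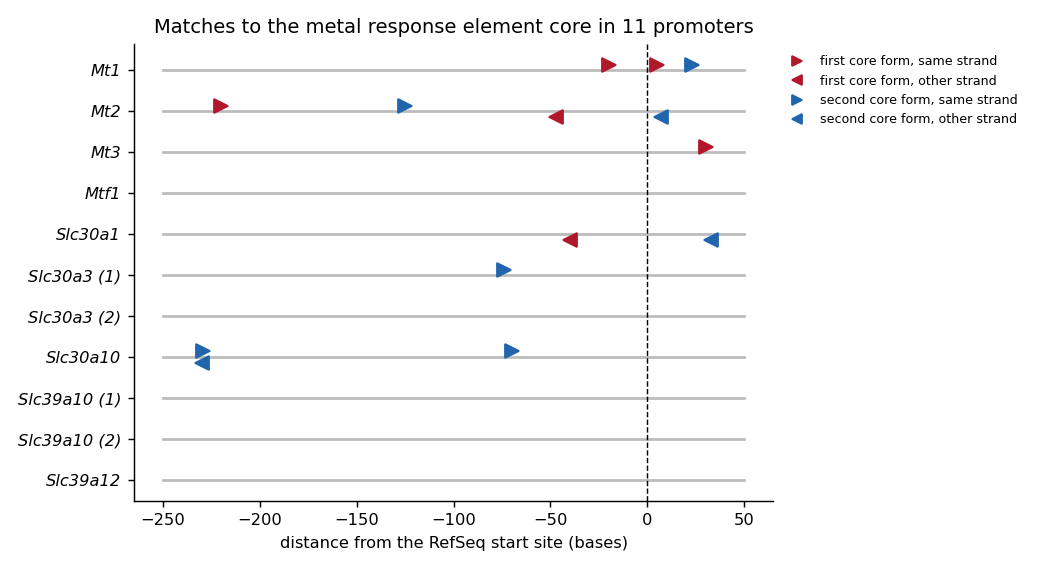
Matches to the 2 forms of the metal response element core in the 11 promoters, with distance from the RefSeq start site in bases on the horizontal axis and 1 line per promoter. Triangles point right for matches on the strand of the gene and left for the other strand. The most matches were in Mt2, with 4, followed by Mt1 and Slc30a10, with 3 each.

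Mt1, Mt2 and Mt3 lie in 1 cluster on chromosome 8 (GRCm38, GENCODE M21), at chr8:94179082-94180327, chr8:94172664-94173568 and chr8:94152607-94154146, all on the plus strand, with 5513 bases between Mt2 and Mt1 and 18517 bases between Mt3 and Mt2. The neighbouring Mt4, a metallothionein of squamous epithelia, had 0 counts in all 6 libraries. Levels of different genes were compared as CPM per kilobase of the exon length given with the counts. Mt1 and Mt3 were the most abundant of the 10 genes, with means of 127.7 ± 47.8 and 122.0 ± 26.5 CPM per kilobase (SD, n = 6 libraries), and their ranges overlapped. Mt2 followed with 52.7 ± 18.3, Slc39a10 with 14.8 ± 2.13 and Slc30a1 with 6.04 ± 1.29 CPM per kilobase. Slc30a10, Mtf1 and Slc39a14 had 3.45 ± 0.772, 2.97 ± 0.293 and 2.56 ± 0.0899 CPM per kilobase, and the range of Mtf1 overlapped those of both others. Slc39a12 had 0.714 ± 0.102 and Slc30a3 had 0.125 ± 0.0439 CPM per kilobase. All other neighbours in the order had ranges that did not overlap.

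**Figure D2:**
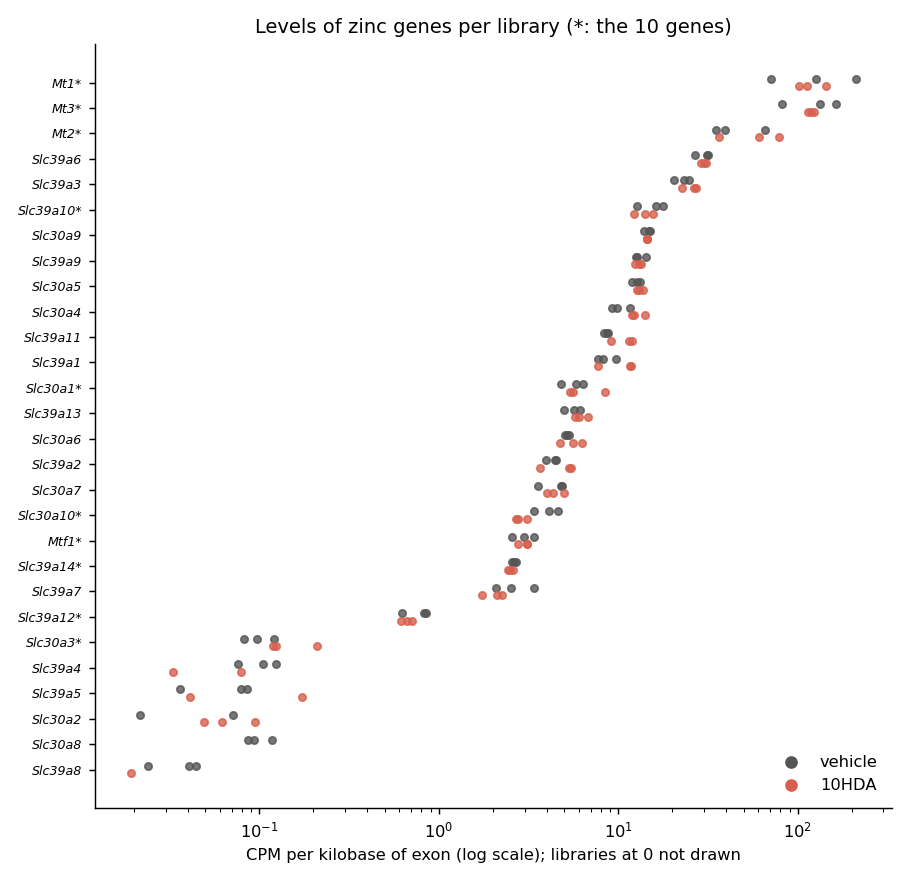
Level of the 10 genes (marked with an asterisk) and the other Slc30a and Slc39a genes in each library, as CPM per kilobase of exon on a log axis, in grey for vehicle and red for 10HDA (3 libraries each, libraries at 0 not drawn). The 3 metallothioneins stand at the top and Slc30a3, at 0.0819 to 0.208 CPM per kilobase, is among the lowest.

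Of the 10 genes, 8 passed the filter of 10 CPM in at least 3 libraries. Of these 8, 0 passed the threshold, an adjusted p under 0.1, in edgeR's quasi-likelihood test of 10HDA against vehicle, in which 0.627% of the 10520 genes tested were called. At an unadjusted p under 0.05 there was 1 (Slc30a10), against 10.1% of all genes, and DESeq2, edgeR's likelihood ratio test and limma-voom also called 0 of the 8. With culture as a block in the same edgeR test, 1 of the 8 was called, Slc30a10, which fell, and 8.98% of all genes were called. The median log2 fold change of the 8 genes was -0.08, beside -0.01 over all genes tested, with 3 higher and 5 lower. In bulk RNA, fewer cells of a type and less RNA per cell cannot be told apart.

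**Figure D3:**
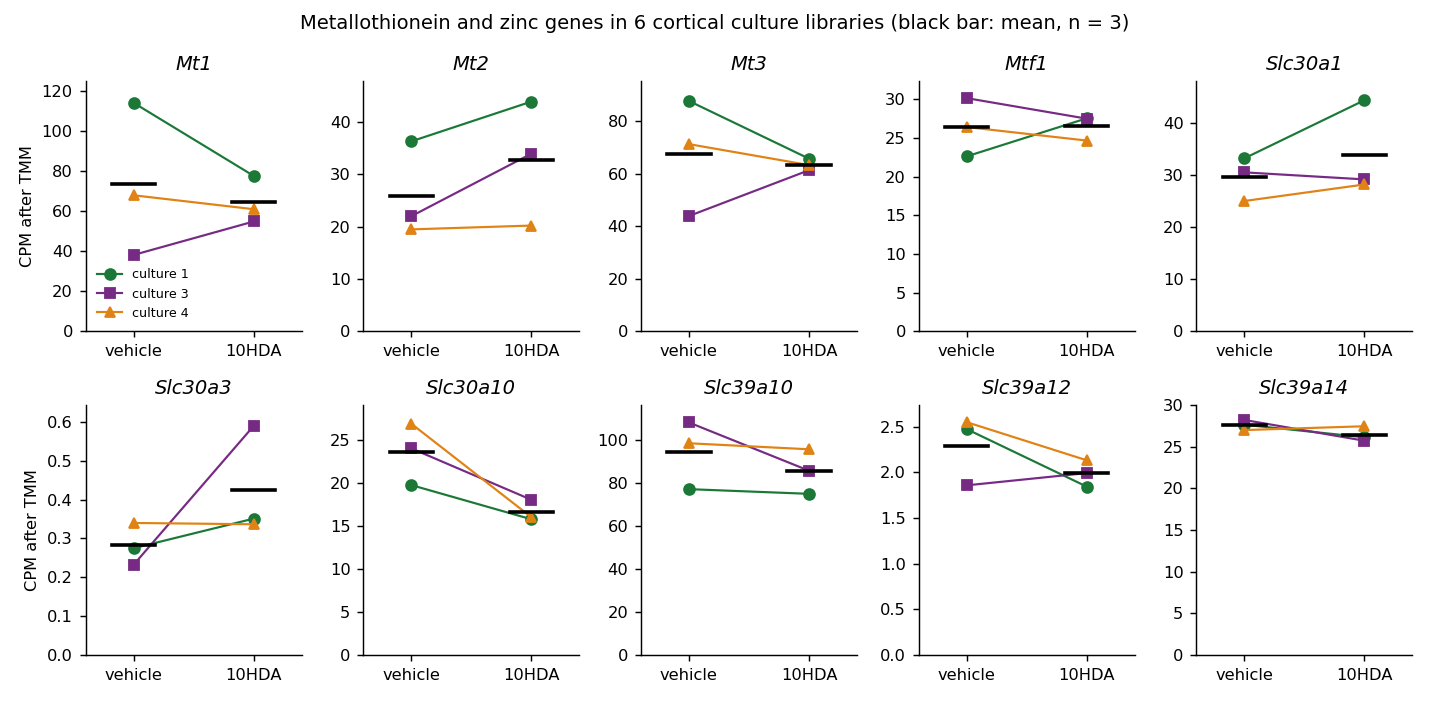
CPM after TMM scaling of each of the 10 genes (vertical axis, from 0) in the vehicle and 10HDA libraries of cultures 1, 3 and 4, joined by culture, with the mean of 3 libraries as a black bar. The 3 vehicle libraries of Slc30a10, at 19.8 to 26.9 CPM, sit above all 3 10HDA libraries, at 15.8 to 18.1 CPM, while for Mt1 and Mt3 the 3 lines run from a wide spread with vehicle to a narrower one with 10HDA.

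Vehicle levels of the 3 metallothioneins spanned 1.86-fold to 2.99-fold over the cultures, and their differences between treatments did not pass the threshold. Mt1, one of the 2 widely expressed isoforms, was at 114 CPM, 38.1 CPM and 68.0 CPM in the vehicle libraries of cultures 1, 3 and 4, and at 77.7 CPM, 54.9 CPM and 61.0 CPM in the 10HDA libraries. The vehicle library of culture 1 was the highest and that of culture 3 the lowest, and all 10HDA values lay between them. The log2 fold change was -0.18 ± 0.30 (SE, n = 3 against 3, adjusted p = 0.844 in edgeR), and -0.08 ± 0.13 with culture as a block (adjusted p = 0.807). Vehicle libraries differed 2.99-fold from lowest to highest, the standard deviation on the log2 scale ranking 12th of 10520 genes, whereas the 10HDA libraries differed 1.42-fold and ranked 1151st.

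Mt2, the partner of Mt1 in most tissues, was at 36.3 CPM, 22.0 CPM and 19.5 CPM with vehicle in cultures 1, 3 and 4, and at 43.9 CPM, 33.9 CPM and 20.2 CPM with 10HDA. It was higher with 10HDA in each of the 3 cultures, as were 18.6% of all genes tested, but the ranges of the treatments overlapped. Its spread was not narrower with 10HDA, at 1.86-fold over the vehicle libraries and 2.17-fold over the 10HDA libraries. Its log2 fold change was 0.35 ± 0.28 (SE, adjusted p = 0.677 in edgeR), and 0.33 ± 0.12 with culture as a block (adjusted p = 0.111), above the threshold of 0.1 in both. Of the 50-base windows of the Mt2 exons, 45.9% also lie in the antisense gene Gm45774, which was not in the count table, so that reads of both cannot be told apart if strand was not used in counting.

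Mt3, the isoform of the nervous system, was at 87.8 CPM, 43.9 CPM and 71.4 CPM with vehicle in cultures 1, 3 and 4, and at 65.8 CPM, 61.4 CPM and 63.4 CPM with 10HDA. As for Mt1, the 10HDA libraries all lay inside the range of the vehicle libraries, which spanned 2.0-fold against 1.07-fold. For Mt3 the log2 fold change was -0.09 ± 0.20 (SE, adjusted p = 0.89 in edgeR), and -0.04 ± 0.12 with culture as a block (adjusted p = 0.904). No window of Mt1 or Mt3 was shared with another gene.

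For both Mt1 and Mt3, the difference between treatments had one direction in culture 3 and the other in cultures 1 and 4. The log2 ratio of 10HDA to vehicle for Mt1 was -0.56 in culture 1 (95% counting interval -0.68 to -0.43), 0.52 in culture 3 (0.36 to 0.69) and -0.16 in culture 4 (-0.31 to 0.00). For Mt3 it was -0.42 in culture 1 (-0.55 to -0.28), 0.48 in culture 3 (0.33 to 0.64) and -0.17 in culture 4 (-0.33 to -0.02). These intervals cover counting error only, and with 1 library per treatment in a culture the difference between cultures was not tested. With both libraries of culture 3 left out and culture as a block, edgeR gave log2 fold changes of -0.37 for Mt1 (adjusted p = 0.0190) and -0.30 for Mt3 (adjusted p = 0.0812), both past the threshold in a fit that called 10.9% of all genes, and that leaves out the culture already seen to go the other way. With culture 1 left out, the values were 0.20 for Mt1 (adjusted p = 0.484) and 0.17 for Mt3 (adjusted p = 0.55). The direction for Mt1 and Mt3 thus depended on which culture was counted. For Mt2 the direction stayed and the size varied: it was 0.38 without culture 1, 0.18 without culture 3 and 0.45 without culture 4 (adjusted p between 0.153 and 0.461 in edgeR), and without a block it was 0.08 when the 10HDA library of culture 1 was left out and 0.69 when the vehicle library of culture 1 was.

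The sum of the 3 metallothioneins was 238 CPM, 104 CPM and 159 CPM with vehicle in cultures 1, 3 and 4, and 187 CPM, 150 CPM and 145 CPM with 10HDA, with the 10HDA sums between the extremes of vehicle. The balance of Mt2 to Mt1 was higher with 10HDA in every culture: the log2 ratio of Mt2 to Mt1 CPM was -1.65, -0.80 and -1.80 with vehicle in cultures 1, 3 and 4, and -0.82, -0.69 and -1.60 with 10HDA. The shift was largest in culture 1 and smaller in cultures 3 and 4, and the treatments overlapped. No counting interval was computed for the ratio, so the small shifts were not set against counting error. No exact permutation test was run on these sums and ratios, since 3 libraries per treatment allow no p below 0.1.

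**Figure D4:**
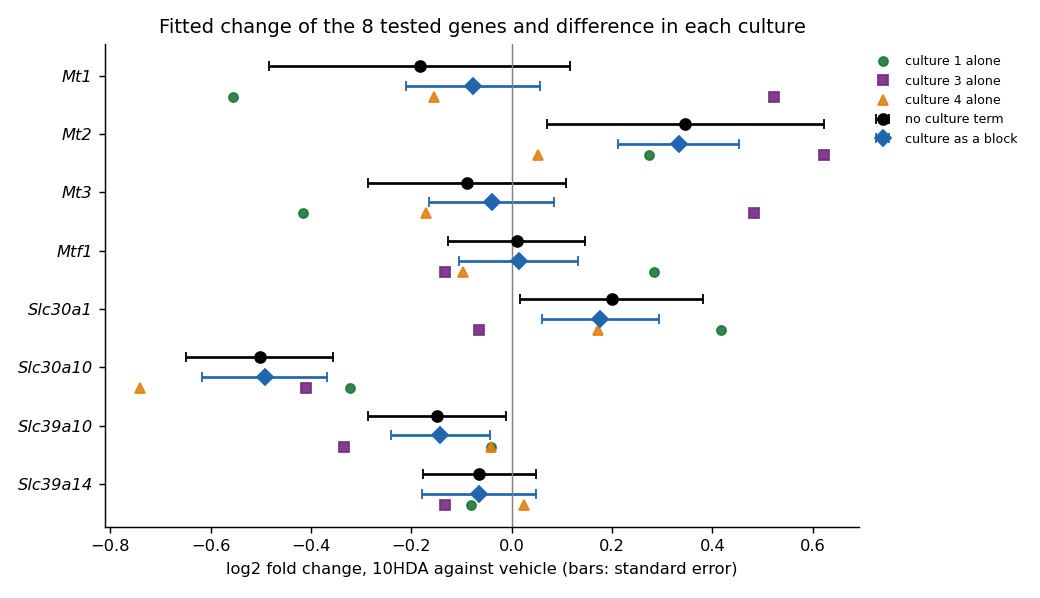
Log2 fold change of 10HDA against vehicle for the 8 genes tested, without a culture term (black circles) and with culture as a block (blue diamonds), with the standard error as bars, and the difference in each culture alone (green circles, purple squares and orange triangles for cultures 1, 3 and 4). Slc30a10 lies below 0 in both fits and in all 3 cultures, and for Mt1 and Mt3 culture 3 lies on the other side of 0 from cultures 1 and 4.

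A test of the culture terms in the blocked edgeR fit, added after the data had been seen, called 9.93% of all genes at an adjusted p under 0.1, and among the 8 genes Mt1, Mt2, Mt3 and Slc30a1. Mt1 was lower by 1.03 on the log2 scale in culture 3 than in culture 1, and by 0.57 in culture 4 (adjusted p = 0.000997 in edgeR). Mt2 was lower by 0.53 in culture 3 and by 1.00 in culture 4 (adjusted p = 0.00059 in edgeR). The corresponding log2 differences were -0.54 and -0.19 for Mt3 (adjusted p = 0.0753) and -0.37 and -0.54 for Slc30a1 (adjusted p = 0.0466), also in edgeR. All 4 genes were thus highest in culture 1, the culture whose libraries had few Y-linked counts. Whether that is linked was not tested. The culture test takes the same treatment effect in all cultures, whereas Mt1 and Mt3 had opposite directions between cultures. With 10HDA, Mt3 lay between 61.4 CPM and 65.8 CPM, so its culture difference was mainly among the vehicle libraries. With culture 1 left out, cultures 3 and 4 still differed in Mt1, which was 0.48 higher in culture 4 on the log2 scale (adjusted p = 0.0303 in edgeR), and in Mt2, which was lower by 0.48 (adjusted p = 0.056), where 10.6% of all genes were called. Mt3 (0.36, adjusted p = 0.11) and Slc30a1 (-0.18, adjusted p = 0.483) did not pass the threshold.

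Over the 6 libraries, Mt1 and Mt3 went together more closely than Mt1 and Mt2: Pearson's r of log2 CPM was 0.96 for Mt1 with Mt3, 0.51 for Mt1 with Mt2 and 0.36 for Mt2 with Mt3. Mt2 went with Slc30a1 (r = 0.82), and Slc39a10 ran against Mt2 (r = -0.91). Mtf1 ran against Mt1 (r = -0.84) and Mt3 (r = -0.88) and was at r = -0.14 with Mt2. The 5 tested genes outside the set that were most like the mean log2 CPM of Mt1 and Mt2 were Bola2 (r = 0.985), Snx32 (0.981), Tpd52l2 (0.980), Mecr (0.979) and Ctsa (0.979), of 10512 compared. These are descriptions over 6 libraries that share 3 cultures, and the genes near the top of so long a list were picked for their r.

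Mtf1, at chr4:124802104-124849800 on the plus strand, encodes the zinc sensor MTF-1. It was at 22.6 CPM, 30.2 CPM and 26.4 CPM with vehicle in cultures 1, 3 and 4, and 27.6 CPM, 27.5 CPM and 24.7 CPM with 10HDA, so the 10HDA values lay inside the vehicle range. Treatment gave a log2 fold change of 0.01 ± 0.14 (SE, adjusted p = 0.986 in edgeR). Of its 50-base exon windows, 7.55% lie in the antisense gene 1110065P20Rik.

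Slc30a1 encodes ZnT1, the exporter at the plasma membrane and an MTF-1 target, at chr1:191906767-191913247 on the plus strand. It was at 33.2 CPM, 30.5 CPM and 25.0 CPM with vehicle in cultures 1, 3 and 4, and at 44.3 CPM, 29.1 CPM and 28.1 CPM with 10HDA. Only the 10HDA library of culture 1 stood above all vehicle libraries. Slc30a1 had a log2 fold change of 0.20 ± 0.18 (SE, adjusted p = 0.711 in edgeR), and 0.18 ± 0.12 with culture as a block (adjusted p = 0.43). Without the 10HDA library of culture 1 it was -0.04, and without both libraries of that culture it was 0.06, with and without the block. Of the 50-base exon windows of Slc30a1, 8.01% lie in the antisense gene 1700034H15Rik.

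Slc30a10, at chr1:185454848-185468762 on the plus strand, encodes a member of the exporter family that is best known for moving manganese out of cells. It was at 19.8 CPM, 24.1 CPM and 26.9 CPM with vehicle in cultures 1, 3 and 4, and at 15.8 CPM, 18.1 CPM and 16.0 CPM with 10HDA. All 3 vehicle libraries were above all 3 10HDA libraries, the only 1 of the 8 genes for which the treatments did not overlap, beside 13.4% of all genes tested (7.44% lower and 5.96% higher with 10HDA). Its log2 fold change was -0.50 ± 0.15 (SE, adjusted p = 0.274 in edgeR's quasi-likelihood test), a level 0.706 times that of vehicle. It was -0.49 ± 0.12 with culture as a block (adjusted p = 0.0176 in edgeR), where 5.08% of all genes were called lower. The log2 ratio was -0.32 in culture 1, -0.41 in culture 3 and -0.75 in culture 4, and the 95% counting interval lay below 0 in each.

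The call for Slc30a10 with culture as a block held in edgeR without culture 1 (log2 fold change -0.55, adjusted p = 0.0309), where 6.76% of all genes were called, and without culture 3 (-0.54, adjusted p = 0.00706), where 10.9% were. Without culture 4, where the difference was largest, it was -0.36 with an adjusted p of 0.38, and 2.63% of all genes were called. Of its 50-base exon windows 8.36% lie in the antisense gene Gm2061. That gene was at 7.39 to 8.12 CPM with vehicle and at 6.19 to 7.96 CPM with 10HDA, and the ranges overlapped. Of 13 tested markers of astrocytes, of 15 listed, 5 were called lower in edgeR and 0 higher, beside 0.428% and 0.200% of all genes, while Sox9 and Fgfr3 had values above 0. The list summed to between 1893 and 2231 CPM with vehicle and between 1498 and 1770 CPM with 10HDA. The median log2 fold change of those 13 was -0.30, from Gfap, the intermediate filament of astrocytes, at -1.28 to Fgfr3, a growth factor receptor, at 0.18. The neuronal markers, all 8 tested, were called 0 times (3 lower with culture as a block, beside 5.08% of all genes). Their median was -0.24, from Rbfox3 at -0.42 to Nefl at 0.01. Their sums, given above, did not overlap between treatments either. The part of cell composition in the lower Slc30a10 was not tested.

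Slc30a3, at chr5:31086106-31108237 on the minus strand, was scarcely detected, although the glutamatergic markers were present. It had 3, 3 and 4 counts with vehicle in cultures 1, 3 and 4, and 4, 8 and 3 counts with 10HDA. These counts are at or just above the limit of 3, so no fold change is given and a difference was not detectable at this depth. All 8 glutamatergic markers passed the filter, at a summed level of 1233 to 1569 CPM with vehicle and 1139 to 1359 CPM with 10HDA. Of these, 0 were called in edgeR (2 lower with culture as a block, beside 5.08% of all genes). The median log2 fold change was -0.19, from Camk2a at -0.44 to Neurod2 at 0.16.

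Among the importers, Slc39a10 (ZIP10), at chr1:46807544-46892852 on the minus strand, was the most abundant of the 3. It was at 77.1 CPM, 108 CPM and 98.5 CPM with vehicle in cultures 1, 3 and 4, and at 74.9 CPM, 85.7 CPM and 95.7 CPM with 10HDA. It was lower with 10HDA in all 3 cultures, as were 21.0% of all genes, and the ranges overlapped. Its log2 fold change was -0.15 ± 0.14 (SE, adjusted p = 0.715 in edgeR), and -0.14 ± 0.10 with culture as a block (adjusted p = 0.458). Leaving out the vehicle library of culture 3 brought it to -0.02, and leaving out that of culture 1 to -0.25.

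Slc39a14 (ZIP14), which carries manganese and iron as well as zinc, lies at chr14:70303469-70351425 on the minus strand. It varied least between vehicle libraries of the 8 genes tested, at 27.7 CPM, 28.2 CPM and 27.0 CPM with vehicle in cultures 1, 3 and 4, and at 26.1 CPM, 25.7 CPM and 27.5 CPM with 10HDA. The log2 fold change was -0.06 ± 0.11 (SE, adjusted p = 0.857 in edgeR), and with library size alone as the scaling it was 0.01. Slc39a12 (ZIP12), an importer of neural tissue at chr2:14388316-14494977 on the plus strand, did not reach the filter. Its counts were 27, 24 and 30 with vehicle in cultures 1, 3 and 4, and 21, 27 and 19 with 10HDA, or 1.86 to 2.55 CPM and 1.84 to 2.13 CPM. In the edgeR fit with a filter of 1 CPM its log2 fold change was -0.19 ± 0.26 (SE, adjusted p = 0.811), in which 0.509% of genes were called.

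Of the other 7 exporter genes of the Slc30a family, 5 were tested and 0 were called in edgeR, with a median log2 fold change of 0.06, 4 higher and 1 lower. Blocking on culture called 1 of them higher (3.91% of all genes were called higher): Slc30a4, which loads vesicles with zinc, rose by 0.32 ± 0.11 on the log2 scale (adjusted p = 0.0857 in edgeR, 0.419 without the block). It was at 53.8 CPM, 63.7 CPM and 50.5 CPM with vehicle and 76.9 CPM, 65.5 CPM and 66.7 CPM with 10HDA in cultures 1, 3 and 4, without overlap. The blocked call held without culture 3 (0.46, adjusted p = 0.00205 in edgeR) and not without culture 1 (0.23, adjusted p = 0.344) or culture 4 (0.28, adjusted p = 0.51).

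Of the other 11 importer genes of the Slc39a family, 7 were tested and 0 were called, with a median log2 fold change of 0.15, 6 higher and 1 lower. The blocked fit called 1, where 3.91% of all genes were called higher. Slc39a11, the family's member closest to bacterial zinc transporters, rose by 0.33 ± 0.11 on the log2 scale (adjusted p = 0.0856 in edgeR, 0.419 without the block). It was at 29.6 CPM, 28.9 CPM and 28.0 CPM with vehicle and 38.4 CPM, 40.1 CPM and 30.5 CPM with 10HDA in cultures 1, 3 and 4, and the treatments did not overlap. The blocked call did not hold in edgeR without culture 1 (0.32, adjusted p = 0.208), culture 3 (0.25, adjusted p = 0.233) or culture 4 (0.43, adjusted p = 0.172). Of 3 further zinc proteins none passed the filter. Mt4 had 0 counts and Gpr39, a zinc-sensing receptor, 1 count in all. Tmem163, a zinc transporter of synaptic vesicles, was at 12.2 CPM, 8.82 CPM and 10.2 CPM with vehicle and 7.37 CPM, 6.19 CPM and 7.06 CPM with 10HDA, without overlap. In the edgeR fit with a filter of 1 CPM its log2 fold change was -0.58 ± 0.18 (adjusted p = 0.283), and -0.58 ± 0.16 with culture as a block (adjusted p = 0.038), in which 7.50% of genes were called. The blocked value was -0.51 without culture 1 (adjusted p = 0.164 in edgeR), -0.64 without culture 3 (adjusted p = 0.0256) and -0.62 without culture 4 (adjusted p = 0.139).

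**Figure D5:**
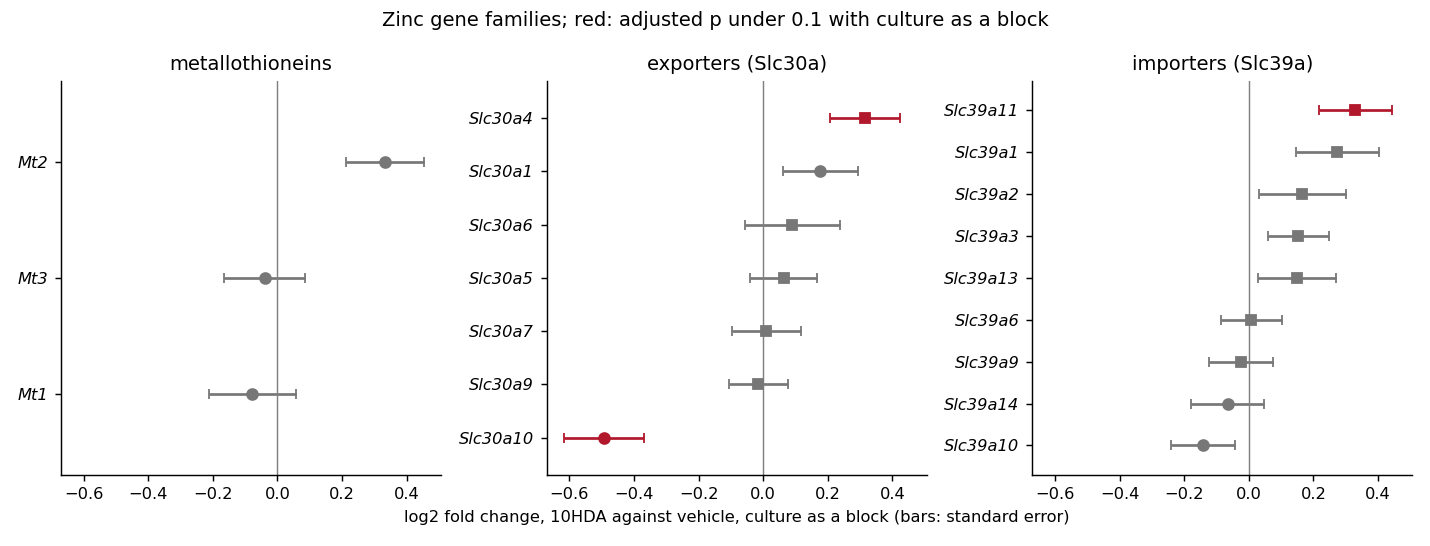
Log2 fold change of 10HDA against vehicle with culture as a block, with the standard error as bars, for the tested metallothioneins, Slc30a exporters and Slc39a importers (circles for the 10 genes, squares for other family members). Red marks an adjusted p under 0.1: Slc30a10 lies at -0.49, and Slc30a4 and Slc39a11 lie at 0.32 and 0.33.

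Other genes linked to MTF-1 were read from the same fits. Of 8 listed, 6 were tested, 3 higher and 3 lower, with 0 called in edgeR and a median log2 fold change of 0.04. The blocked fit called 5.08% of all genes lower. In that fit Csrp1, a LIM domain protein, was called and fell by 0.43 ± 0.12 on the log2 scale (adjusted p = 0.0384 in edgeR, 0.312 without the block). It was at 40.1 CPM, 29.9 CPM and 35.4 CPM with vehicle and 23.3 CPM, 27.4 CPM and 27.1 CPM with 10HDA in cultures 1, 3 and 4, without overlap. The difference was largest in culture 1. The blocked value was -0.23 without that culture (adjusted p = 0.403 in edgeR), -0.59 without culture 3 (adjusted p = 0.000349) and -0.44 without culture 4 (adjusted p = 0.214).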

How the data were processed

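The deposited values were raw read counts per gene. According to the study's methods and the submitters' processing notes, the authors assessed 50 bp single-end reads with FastQC, aligned them untrimmed to mm10 with Subjunc (Subread 1.4.4) and counted them with featureCounts on Gencode models. The kit was strand-specific, but whether counting used strand is not given in the sources used here.

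Counts were fitted with edgeR 4.0.16 (glmQLFit, glmQLFTest) in R 4.3.3 over the 10520 genes that reached 10 CPM in 3 or more libraries, with TMM scaling, Benjamini-Hochberg adjustment, a threshold of 0.1 and no culture term, after the study's methods. CPM were counts over the summed counts of the tested genes times the TMM factor from edgeR. The filter, the Y-linked CPM and the CPM of 3 counts used the full library total without TMM. Standard errors are log2 fold changes over the root of F. Deviations from the treatment means correlated at 0.368, 0.235 and 0.616 between libraries of the same culture, and at -0.449 to 0.183 otherwise. Without a culture term, p-values rest on the spread between libraries of a treatment, each from a different culture. With culture as a block, they rest in part on the spread left after the culture and treatment terms. In both fits edgeR draws the spread of a gene towards that of other genes. Blocked standard errors followed a gene's own spread only in part, at 0.133 for Mt1 and 0.113 for Slc39a14. The SD of the log2 differences of these genes over the cultures was 0.545 and 0.080. The members and lists were chosen with earlier results of these data known. All 10 genes were named, with list members past the threshold in either fit, the highest and lowest of each marker list and the 5 genes most like Mt1 and Mt2. Symbols and coordinates are from GENCODE M21 (GRCm38). Other scalings, tests (DESeq2 1.42.0, limma 3.58.1), filters and left-out libraries were tried. Blocked fits without a culture and the culture test were chosen after seeing the data. The edgeR fits were also run on simulated counts without culture effects, a check that does not cover the culture differences seen here.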

Additional observations from a re-analysis of the deposited data

Results flagged for a closer look

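Mt1 and Mt3 stood out because their treatment difference had opposite directions in different cultures, beyond counting error in at least 1 culture either way. The log2 ratio of 10HDA to vehicle CPM for Mt1 was -0.5565 in culture 1, 0.5247 in culture 3 and -0.1559 in culture 4, and for Mt3 it was -0.4164, 0.4834 and -0.1716. Each culture has 1 library per treatment, so the difference between cultures was not tested. In culture 3 the vehicle library had the lowest level of both genes among all 6 libraries.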

How the results depend on the processing

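The labels give each culture 1 library of each treatment, so the fit with culture as a replicate block is the paired analysis. It called 945 genes against 66 without the block, 1 of the 8 tested zinc genes against 0 and 23 genes of all the lists together (listed genes) against 6, with a median log2 fold change of the zinc genes of -0.0525 against -0.0771; among the 10 genes it changed the call of Slc30a10 and no other. With the block and a filter of 1 CPM the values were 1148, 1, 26 and -0.0400. With no filter on low counts, 636 genes, 1 zinc gene (Slc30a10, adjusted p = 0.0819 in edgeR) and 18 listed genes were called. DESeq2's test called 170 genes and 10 listed genes, edgeR's likelihood ratio test 218 and 13, and a threshold of 0.05 left 43 genes. The median was -0.0479 with upper quartile scaling, -0.0011 with library size alone and -0.0420 with limma-voom. Slc39a14 turned to 0.0110 with library size alone. Leaving out 1 library at a time gave 0 to 350 genes called, 0 zinc genes, 0 to 10 listed genes and a median of -0.0896 to 0.0612, with log2 fold changes of -0.4767 to 0.3069 for Mt1, 0.0772 to 0.6893 for Mt2, -0.3045 to 0.1643 for Mt3, -0.0660 to 0.1387 for Mtf1, -0.0434 to 0.3122 for Slc30a1 and -0.2545 to -0.0212 for Slc39a10. Leaving out culture 1, 3 or 4 left 3, 0 and 36 genes called, 0, 0 and 4 listed genes, and medians of 0.0122, -0.0363 and -0.0715. With the block these became 711, 1150 and 277 genes, 1, 3 and 0 zinc genes, 20, 24 and 9 listed genes, and medians of 0.0118, -0.0354 and 0.0034. Without culture 1, Mt1 turned to 0.1459 (0.1985 with the block), Mt3 to 0.1336 (0.1730) and Mtf1 to -0.0977 (-0.0999), and without culture 4 Mt3 turned to 0.0338 with the block. Slc30a10 kept its direction under every alternative run (-0.5893 to -0.3643). The call for Slc30a10 came with the block or without a filter and was lost with the block when culture 4 was left out. At this depth Slc30a3 and Slc39a12 could not be assessed for modest differences. The causes were not tested.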

Other observations

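Copper is the other metal that metallothioneins bind, and copper-handling genes were read from the same fit. Of 10 listed, 6 were tested, 5 higher and 1 lower, with 0 called in edgeR and a median log2 fold change of 0.20. The blocked fit called 1, where 3.91% of all genes were called higher. Atox1, the chaperone that hands copper to the export pumps, rose by 0.37 ± 0.13 on the log2 scale (adjusted p = 0.0889 in edgeR, 0.6 without the block). Atox1 was at 25.3 CPM, 22.7 CPM and 15.5 CPM with vehicle and 28.4 CPM, 37.0 CPM and 17.5 CPM with 10HDA in cultures 1, 3 and 4, higher in each culture while the treatments overlapped, and without culture 1 the blocked value was 0.49 (adjusted p = 0.0633 in edgeR). The call was lost without culture 3 (0.17, adjusted p = 0.529) and without culture 4 (0.45, adjusted p = 0.192).

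Glucocorticoids also induce Mt1 and Mt2, and of 8 genes known to rise with these hormones 5 were tested, 3 higher and 2 lower, with 0 called in edgeR and a median of 0.00 on the log2 scale. Blocking on culture called 1 higher and 1 lower, beside 3.91% and 5.08% of all genes. Tsc22d3, the gene of the leucine zipper protein GILZ, was at 25.6 CPM, 27.9 CPM and 22.6 CPM with vehicle and 35.4 CPM, 34.1 CPM and 26.1 CPM with 10HDA, with a blocked log2 fold change of 0.33 ± 0.11 (adjusted p = 0.0938 in edgeR), and 0.27 without culture 1 (adjusted p = 0.317), 0.35 without culture 3 (adjusted p = 0.0895) and 0.38 without culture 4 (adjusted p = 0.277). Klf9, a transcription factor, was at 12.0 CPM, 13.5 CPM and 17.3 CPM with vehicle and 9.39 CPM, 7.0 CPM and 10.2 CPM with 10HDA, with a blocked log2 fold change of -0.69 ± 0.15 (adjusted p = 0.00623 in edgeR, 0.232 without the block). Without culture 1 the blocked value of Klf9 was -0.84 (adjusted p = 0.00621 in edgeR), without culture 3 it was -0.56 (adjusted p = 0.0244) and without culture 4 it was -0.65 (adjusted p = 0.107). With a filter of 1 CPM all 8 were tested, and the blocked fit called 1 higher, Tsc22d3, and 3 lower: Klf9, Zbtb16, a zinc finger protein, at -0.75 ± 0.15 (adjusted p = 0.00405 in edgeR), and Pdk4, a kinase of glucose oxidation, at -0.99 ± 0.32 (adjusted p = 0.0801). That fit called 7.50% of its 15311 genes, 600 higher and 548 lower. At the same filter without the block, edgeR gave adjusted p = 0.272 for Zbtb16, 0.298 for Pdk4, 0.434 for Tsc22d3 and 0.231 for Klf9. None of these passed the threshold. The blocked call for Pdk4 was lost without culture 3 (adjusted p = 0.303) or culture 4 (adjusted p = 0.329), and that for Zbtb16 held without any 1 culture. Zbtb16 lay between 9.52 and 18.1 CPM with vehicle and between 6.58 and 9.42 CPM with 10HDA, and Pdk4 between 1.47 and 2.55 CPM with vehicle and between 0.885 and 1.14 CPM with 10HDA, both without overlap. Of the genes that passed the filter of 10 CPM, 7.44% were lower with 10HDA without overlap.

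Among 6 tested radial glia markers 0 were called in edgeR (1 higher and 1 lower with culture as a block). The blocked fit called 3.91% of all genes higher and 5.08% lower. The median log2 fold change of these markers was -0.09, from Fabp7 at -0.41 to Vim at 0.32. Of 6 tested oligodendrocyte lineage markers 1 was called lower, beside 0.428% of all genes (3 with culture as a block, beside 5.08%). Their median was -0.49, from Sox10 at -1.44 to Olig2 at 0.24. Among meningeal fibroblast markers only Pdgfra, which is also a marker of oligodendrocyte precursors, passed the filter of 10 CPM, at -1.21 (adjusted p = 0.148 in edgeR, and 1.45e-07 with culture as a block). With a filter of 1 CPM, 3 of the 8 were tested and Dcn, a proteoglycan of connective tissue, was called lower. It was at -1.02 ± 0.17 (adjusted p = 0.0421 in edgeR, and 0.000964 with culture as a block). Col1a1, also tested, was at -0.01 ± 0.46 (adjusted p = 0.998 in edgeR, and 0.978 with culture as a block). The remaining markers of the list did not reach this filter. These fits called 0.509% and 7.50% of all genes. Without culture 1 the blocked value of Dcn was -0.95 (adjusted p = 0.00487 in edgeR). Dcn lay at 8.92 to 9.34 CPM with vehicle and 4.04 to 4.93 CPM with 10HDA. Dcn and Zbtb16 were chosen for naming after their values were seen, as was Pdk4.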
